A study of Mus musculus with 4 samples.

Results

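The transcriptome of medullary thymic epithelial cells (mTECs) of the mouse was examined for 10 genes that store, import, export or release iron. They were Ftl1, Fth1, Ncoa4, Tfrc, Slc11a1, Slc11a2, Slc40a1, Cp, Ireb2 and Hmox1, taken by symbol from the 23337 genes of the deposited tables, and all 10 were among the 18547 genes that passed a filter on low counts. They were chosen by symbol, with the set selected on the measured level of Ftl1 in these libraries, where it was already known to be among the most abundant transcripts and lower in one group. The values of the 10 genes are therefore a description of the 4 libraries, without a test.

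mTECs of C57BL/6 mice of 4 weeks were measured by RNA-seq in 2 libraries of wild-type mice (WT 1 and WT 2) and 2 libraries labelled Sirt6-/- (Sirt6-/- 1 and Sirt6-/- 2). SIRT6 is a nuclear deacetylase of histones and other proteins. Per the study's methods, the mutants carried Sirt6 loxp/loxp with a Cre driven by Foxn1, a gene of thymic epithelium, so the deletion was directed to the thymic epithelium and not to the whole mouse, and the cells were sorted as CD45- EpCAM+ UEA-1+ Ly51-. The methods call the 2 samples of each group independent, and neither they nor the labels say whether a sample was 1 mouse or several. The libraries held between 61102704 and 65907745 counts, with between 18608 and 19475 genes with a count. The transcript of Sirt6 itself was not lower in the libraries labelled Sirt6-/-: its counts were 622 in WT 1, 755 in WT 2, 882 in Sirt6-/- 1 and 835 in Sirt6-/- 2 (log2 fold change 0.37, SE 0.32, adjusted p = 0.80 by edgeR's quasi-likelihood test with Benjamini-Hochberg adjustment). The study reports that Sirt6 was inactivated, by western blot of cultured thymic epithelial cells and quantitative PCR of sorted medullary and cortical cells. Those measurements are not analysed here. Which exons the deletion removes was not used here, so a gene-level count does not settle whether the deleted exons were read, and the mutant group is named by its label throughout. The epithelial marker Epcam was abundant in all 4 libraries, at 798 TPM in WT 1, 835 in WT 2, 1060 in Sirt6-/- 1 and 1201 in Sirt6-/- 2. TPM (transcripts of a gene, corrected for transcript length, as a share of all transcripts) is the scale on which different genes are compared below.

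Cells hold spare iron inside ferritin, a hollow shell built from heavy chains (Fth1), which oxidize iron, and light chains (Ftl1), which help to mineralize it. Iron enters bound to transferrin through the transferrin receptor (Tfrc), passes from endosomes or phagosomes to the cytosol through the transporters of the Slc11a family, and leaves through ferroportin (Slc40a1). When iron is scarce, iron regulatory proteins, one of them encoded by Ireb2, bind a stem-loop in the RNA called the iron-responsive element: bound in a 5′ UTR it blocks translation, and bound in the 3′ UTR of Tfrc it protects the RNA from decay. Macrophages carry much of the body's iron traffic because they take up dying red cells, break their heme with heme oxygenase (Hmox1) and export the iron through ferroportin.

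The stem-loops are shown first because they are what links ferritin, ferroportin and the transferrin receptor to the same iron sensor. A stem-loop of 17 bases was sought in the UTRs of all 10 genes. The search used a single GENCODE M21 transcript on GRCm38 for each gene, the lowest-numbered protein-coding one. The stem-loop was an unpaired C, a stem of 5 base pairs (G-T allowed) and a loop of 6 bases reading CAGTGN. Sequences run 5′ to 3′ on the strand of the gene, written as DNA, with the loop in capitals.

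Ftl1, 5′ UTR: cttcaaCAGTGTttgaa
Fth1, 5′ UTR: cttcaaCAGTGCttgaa
Slc40a1, 5′ UTR: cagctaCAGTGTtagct
Tfrc, 3′ UTR, 1: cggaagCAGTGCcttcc
Tfrc, 3′ UTR, 2: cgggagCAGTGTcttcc
Tfrc, 3′ UTR, 3: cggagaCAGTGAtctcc
Tfrc, 3′ UTR, 4: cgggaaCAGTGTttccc

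The stem-loops of both ferritin chains differed at 1 of 17 bases, T12C counted from 1 at the 5′ end of the stem-loop of Ftl1, which is the last base of the loop. That of Ftl1 covers bases 84 to 100 of its 5′ UTR (chr7:45459785-45459801, minus strand), that of Fth1 bases 93 to 109 (chr19:9982738-9982754, plus strand), and that of Slc40a1 bases 96 to 112 (chr1:45925471-45925487, minus strand). In Tfrc, 4 stem-loops lay in the 3′ UTR on the plus strand, at chr16:32631225-32631241, chr16:32631604-32631620, chr16:32631669-32631685 and chr16:32631716-32631732. Stem-loops of this kind were rare in the annotation. With all annotated 5′ UTRs of a gene searched, they were found in 31 of 21877 protein-coding genes (0.142%). Of the 5′ UTRs of 150 bases or more, 9 of 9784 (0.092%) held one in their first 150 bases. Of the 3′ UTRs at least as long as that of Tfrc, 31 of 2651 (1.17%) held at least 1 in their first 2458 bases, and 1 of them, that of Tfrc, held 4 or more. No match was found in the UTRs of the other 6 genes. This says only that these letters are not in the single annotated transcript searched for each.

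**Figure D1:**
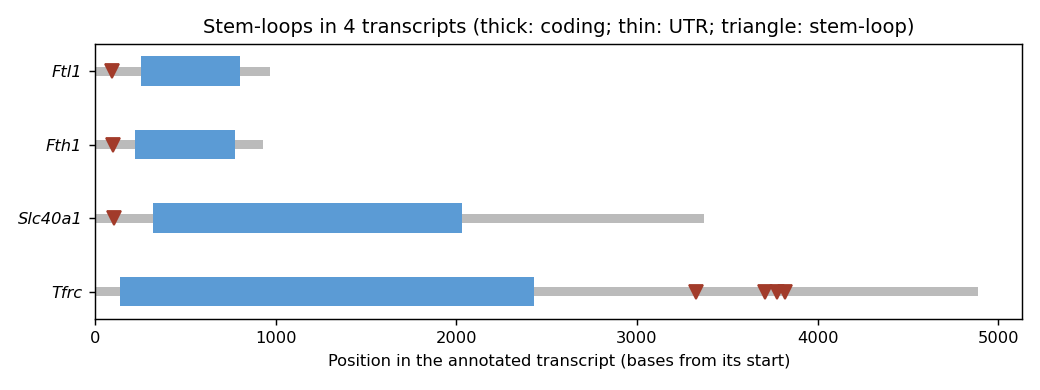
Position of the stem-loops in the annotated transcripts of Ftl1, Fth1, Slc40a1 and Tfrc, in bases from the transcript start. Thick bars are coding sequence, thin bars are UTR and triangles are stem-loops: 1 lies in the 5′ UTR of Ftl1, Fth1 and Slc40a1, starting 84 to 96 bases from the transcript start, and 4 lie in the 3′ UTR of Tfrc.

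Both ferritin chains were lower in the libraries labelled Sirt6-/- than in WT, while heme oxygenase, the transferrin receptor and the ferritin cargo receptor were higher. Ferroportin had the lowest fold change of the 10 genes. Ftl1, Fth1, Slc40a1 and Cp were lower in both mutant libraries than in both WT libraries in normalized counts (CPM, counts scaled to library size with edgeR's TMM factors), Tfrc, Ncoa4 and Hmox1 were higher in both, and in Slc11a1, Slc11a2 and Ireb2 the groups overlapped. Of all genes tested, 20.3% lay lower without overlap and 21.6% higher without overlap, so nothing is read from the 4 and 3 of 10. The median log2 fold change of the 10 genes was -0.11, beside -0.00 over all genes tested.

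The light chain gene Ftl1 (chr7:45457944-45459884, minus strand) was the most abundant of the 10 genes in every library. Its level was 9804 TPM in WT 1, 8775 in WT 2, 5989 in Sirt6-/- 1 and 6604 in Sirt6-/- 2. The mean was 9290 ± 728 TPM in WT and 6296 ± 435 in the libraries labelled Sirt6-/- (SD, n = 2 each), and WT was 1.48-fold higher. The counts behind these values were 287097, 242822, 160945 and 187384 in the same order, so counting error is small beside the spread between libraries. By count Ftl1 ranked 7 and 8 among all genes in the WT libraries and 17 and 19 in the libraries labelled Sirt6-/-. By TPM its rank moved less, from 5 in both WT libraries to 7 and 6. The fitted log2 fold change was -0.55 (SE 0.14).

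Reads of Ftl1 can be hard to place. Of the 50-base words in its transcript, 78.9% also occur in other annotated genes, 15 in all, most of all in the pseudogene Ftl1-ps1 with 73.4%. None of those 15 genes was listed in the deposited tables, and how the authors counted reads with several matches is not given in the sources used here. In addition, 109 exonic bases of Ftl1 overlap Gm22133 on the same strand and 355 overlap Gm10252 on the other strand, neither of them listed in the tables.

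The heavy chain gene Fth1 (chr19:9980598-9985098, plus strand) showed the same order of groups with a smaller difference. Its level was 5385 TPM in WT 1, 5068 in WT 2, 4069 in Sirt6-/- 1 and 3763 in Sirt6-/- 2, or 5226 ± 224 against 3916 ± 217 (SD, n = 2 each). Both WT libraries lay above both mutant libraries, and the log2 fold change was -0.41 (SE 0.14). Only 6.59% of its 50-base words occur in another annotated gene, Gm6977, against 78.9% of those of Ftl1.

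Because a ferritin shell is built from both chains, their summed level and their ratio were also taken. The sum was 15189 TPM in WT 1, 13843 in WT 2, 10058 in Sirt6-/- 1 and 10367 in Sirt6-/- 2, which is between 1.01% and 1.52% of all TPM. The mean sum was 1.42-fold higher in WT. The 2 mutant libraries lay close together and below both WT libraries. Heavy over light chain was 0.549 in WT 1, 0.578 in WT 2, 0.680 in Sirt6-/- 1 and 0.570 in Sirt6-/- 2. The ratio thus overlapped between the groups, and Sirt6-/- 1 alone stood above the other libraries.

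Ncoa4 (chr14:32159865-32179855, plus strand) encodes the receptor that carries ferritin to the lysosome for breakdown. Its level was 88.9 TPM in WT 1, 65.3 in WT 2, 128 in Sirt6-/- 1 and 114 in Sirt6-/- 2, with a log2 fold change of 0.66 (SE 0.23). Both libraries labelled Sirt6-/- were higher, opposite in direction to both ferritin chains. A processed pseudogene, Gm6768, shares 52.5% of the 50-base words of Ncoa4, and it was not listed in the tables.

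**Figure D2:**
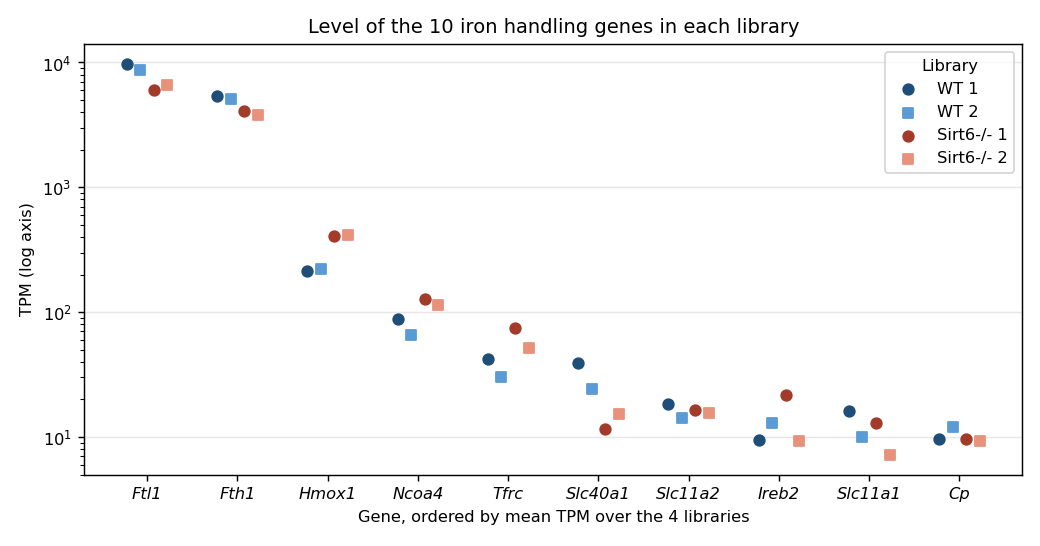
Level of each of the 10 genes in each library in TPM on a log axis, ordered by the mean of the 4 libraries. Blue points are WT and red points are Sirt6-/-: Ftl1 and Fth1 lie between 3763 and 9804 TPM, and the other 8 genes lie at 412 TPM or less.

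The order of levels, by mean TPM over the 4 libraries, was Ftl1 (7793), Fth1 (4571), Hmox1 (315), Ncoa4 (99.1), Tfrc (49.5), Slc40a1 (22.5), Slc11a2 (16.2), Ireb2 (13.3), Slc11a1 (11.6) and Cp (10.2). The ranges of the first 4 genes over the 4 libraries did not overlap with each other. Ncoa4 was above Tfrc, and Tfrc above Slc40a1, within each library, although their ranges over the 4 libraries overlapped. From Slc40a1 downward, each pair of neighbours changed places in at least 1 library. Together the 8 genes other than ferritin summed to between 391 and 686 TPM.

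Among the importers, Tfrc (chr16:32608920-32632794, plus strand) was 41.9 TPM in WT 1, 30.0 in WT 2, 74.7 in Sirt6-/- 1 and 51.5 in Sirt6-/- 2. Both mutant libraries were higher, at 63.1 ± 16.4 against 35.9 ± 8.44 TPM (SD, n = 2 each), with a log2 fold change of 0.82 (SE 0.29). The spread within each group was wide, and Sirt6-/- 1 was the highest library. The ferritin sum was 362 times the level of Tfrc in WT 1 and 462 times in WT 2. It was 135 times the level of Tfrc in Sirt6-/- 1 and 201 times in Sirt6-/- 2. This gap follows from the lower ferritin and higher Tfrc already given and is no further result. All these values are transcript levels, and neither iron nor ferritin protein was measured. The part of the stem-loops in these levels was not tested.

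Slc11a2 (chr15:100387898-100425072, minus strand), known as DMT1, moves iron from endosomes to the cytosol. Its level was 18.5 TPM in WT 1, 14.3 in WT 2, 16.5 in Sirt6-/- 1 and 15.6 in Sirt6-/- 2. Both mutant libraries lay between the WT libraries, and the log2 fold change was -0.03 (SE 0.29). Of its exonic bases, 402 overlap Gm5475 on the other strand. Slc11a1 (chr1:74375195-74386062, plus strand), known as Nramp1, moves metal out of the phagosomes of macrophages and neutrophils. It was 16.2 TPM in WT 1, 9.91 in WT 2, 13.0 in Sirt6-/- 1 and 7.14 in Sirt6-/- 2, with a log2 fold change of -0.37 (SE 0.46). Here the groups overlapped, and the libraries numbered 1 were the higher ones in both groups. The summed TPM of 7 neutrophil markers ran in a like way, at 1586, 1041, 1524 and 1102 in the same order. That of 8 thymocyte markers was 1237, 863, 1069 and 601, and that of 7 cortical epithelial markers 572, 514, 628 and 399. The sums of the macrophage, erythroid, dendritic, fibroblast and endothelial, and mTEC markers did not run this way. The part of any of these populations in the level of Slc11a1 was not tested.

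Slc40a1 (chr1:45908068-45926523, minus strand), the only known iron exporter of mammalian cells, stood at 38.9 TPM in WT 1, 24.0 in WT 2, 11.6 in Sirt6-/- 1 and 15.4 in Sirt6-/- 2, from between 1085 and 3967 counts. Both mutant libraries were lower, with a mean of 13.5 ± 2.70 TPM against 31.5 ± 10.5 (SD, n = 2 each) and a log2 fold change of -1.22 (SE 0.35). WT 1 was well above WT 2, and without WT 1 the log2 fold change was -0.83. Cp (chr3:19957054-20009145, plus strand) encodes ceruloplasmin, a copper oxidase that loads exported iron onto transferrin. Its level was 9.71 TPM in WT 1, 12.1 in WT 2, 9.61 in Sirt6-/- 1 and 9.32 in Sirt6-/- 2. Although the groups did not overlap, WT 1 lay close to both mutant libraries, and the log2 fold change of -0.19 was below its SE of 0.28. Cp shares 108 exonic bases with Hps3 on the other strand.

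Ireb2 (chr9:54863789-54912530, plus strand) encodes iron regulatory protein 2, which binds the stem-loops. Its level was 9.52 TPM in WT 1, 12.9 in WT 2, 21.5 in Sirt6-/- 1 and 9.26 in Sirt6-/- 2, with a log2 fold change of 0.47 (SE 0.45). A single library, Sirt6-/- 1, was high, and without it the fold change turned to -0.27.

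Hmox1 (chr8:75093621-75100589, plus strand) encodes heme oxygenase 1, the inducible enzyme that opens heme and frees its iron. Its level was 215 TPM in WT 1, 222 in WT 2, 411 in Sirt6-/- 1 and 412 in Sirt6-/- 2. The libraries within each group lay close together, at 218 ± 5.27 against 411 ± 0.438 TPM (SD, n = 2 each), and the groups were 1.88-fold apart with a log2 fold change of 0.92 (SE 0.16). Hmox1 had the highest fold change of the 10 genes and Slc40a1 the lowest, so the transcripts of the enzyme that frees iron from heme and of the exporter lay on opposite sides of 0. Hmox1 over Slc40a1 was 5.52 in WT 1, 9.25 in WT 2, 35.5 in Sirt6-/- 1 and 26.7 in Sirt6-/- 2. As these genes are the extremes of the 10, the split of their ratio between the groups follows from their fold changes. It is no further result. Which cells the transcripts of Hmox1 and Slc40a1 came from was not tested.

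**Figure D3:**
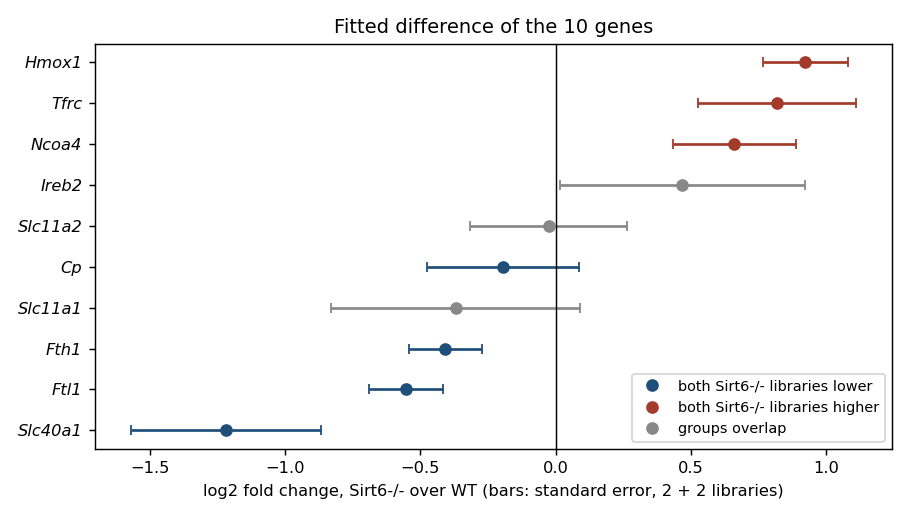
Fitted log2 fold change of each of the 10 genes, Sirt6-/- over WT, with its standard error (2 libraries a group). Slc40a1 lies lowest at -1.22 and Hmox1 highest at 0.92, and grey marks the 3 genes whose groups overlapped.

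Markers of macrophages were lower in the same libraries as Slc40a1 and ferritin. Of 22 macrophage markers, all tested, 10 were lower at an unadjusted p under 0.05 in edgeR and none was higher. The shares over all genes tested were 3.32% lower and 5.27% higher. The median log2 fold change of the 22 markers was -0.65. This list was chosen with earlier results of these data known, so its counts are a description. The 10 were Emr1 (F4/80), C1qa, C1qb, C1qc, Cd68, Lyz2, Timd4, Spic, Ms4a7 and Mpeg1. Of the other 12, 4 had a log2 fold change above 0, which were Siglec1 (0.98, higher in both mutant libraries, at 2.49 TPM or less), Itgam (0.57), Ptprc (0.27) and Marco (0.13). None of the 22 passed the adjusted threshold in edgeR's quasi-likelihood test (0.00539% of all genes did), and 7 did in DESeq2 (1.83% of the genes with an adjusted p). The summed level of the list was 11912 TPM in WT 1, 7085 in WT 2, 4465 in Sirt6-/- 1 and 4743 in Sirt6-/- 2, most of it from Lyz2. Without Lyz2 it was 2380, 1144, 802 and 788 TPM. No marker of the list was at 0 in any library, and Ptprc, which encodes CD45, was at 145 TPM in WT 1, 106 in WT 2, 177 in Sirt6-/- 1 and 129 in Sirt6-/- 2, although the sort was for CD45- cells. In bulk libraries, fewer cells of a type and less RNA per cell cannot be told apart.

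C1qa, a complement chain made by tissue macrophages, was 818 TPM in WT 1, 325 in WT 2, 212 in Sirt6-/- 1 and 205 in Sirt6-/- 2. Cd68, a lysosomal protein of macrophages, was 120, 79.6, 39.6 and 44.3 TPM in the same order, and Emr1 was 11.7, 8.56, 3.59 and 5.69 TPM. In each of them both mutant libraries were below both WT libraries, and WT 1 was the highest, as it was for Slc40a1. Csf1r, the receptor for the macrophage growth factor, was 66.5, 39.4, 33.2 and 38.6 TPM, and Cd163, the scavenger receptor for haemoglobin, was 4.44, 4.68, 2.01 and 3.23 TPM. Neither passed the unadjusted threshold in edgeR (log2 fold changes of -0.56 and -0.79). Slc40a1 divided by the summed macrophage markers was 0.00326 in WT 1, 0.00339 in WT 2, 0.00259 in Sirt6-/- 1 and 0.00325 in Sirt6-/- 2, and as a share of the 3 C1q genes it was 2.32%, 3.63%, 2.99% and 3.87%. Hmox1 and Tfrc were higher in the libraries in which these markers were lower. The part of macrophage RNA in the level of Slc40a1, Ftl1, Fth1, Hmox1 or Tfrc was not tested.

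**Figure D4:**
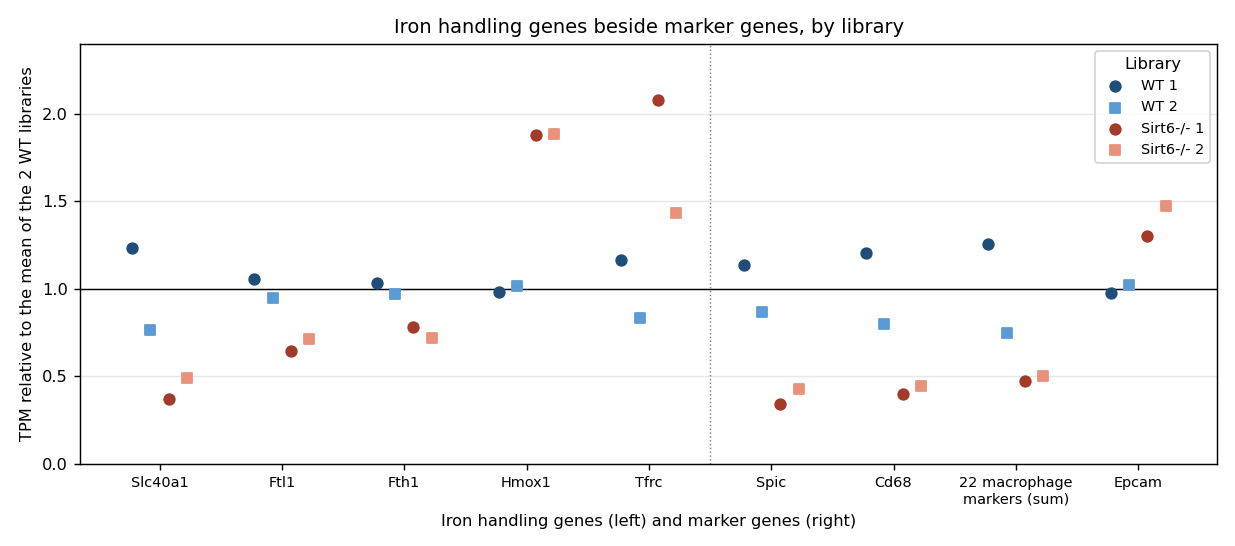
TPM of 5 iron handling genes (left of the dotted line) and of marker genes (right) in each library, divided by the mean of the 2 WT libraries. Slc40a1, Spic, Cd68 and the sum of 22 macrophage markers lie lowest in both Sirt6-/- libraries, Ftl1 and Fth1 are lower by a smaller step, Hmox1 and Tfrc are higher, and the epithelial marker Epcam is higher in both Sirt6-/- libraries.

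Other cell types were set beside the 10 genes in the same way. Of all genes tested, 5.27% were higher and 3.32% lower at the unadjusted threshold in edgeR. Of 8 erythroid markers tested, 1 was lower at the unadjusted threshold in edgeR, the globin gene Hba-a2. Their log2 fold changes had a median of -0.82, with 5 below 0 and 3 above. The sum of the list was 182 TPM in WT 1, 237 in WT 2, 78.3 in Sirt6-/- 1 and 99.2 in Sirt6-/- 2, and Hba-a2 alone held 156, 197, 51.6 and 67.2 TPM of it. Slc4a1 and Epb4.2, genes of the red cell membrane, lay higher in both mutant libraries without passing the threshold (log2 fold changes of 0.58 and 0.47). The 7 dendritic cell markers summed to between 92.5 and 107 TPM with none past the threshold, 4 below 0 and a median of -0.20. None of 8 thymocyte markers passed it, with 6 log2 fold changes below 0 and a median of -0.37. None of 7 neutrophil markers passed it either, with 5 below 0 and a median of -0.05. The 8 fibroblast and endothelial markers also had none past it, with 5 above 0 and a median of 0.19. Among the 12 mTEC markers, Epcam, Aire and Cd80 were higher and Ccl21a was lower at the unadjusted threshold (log2 fold changes of 0.48, 0.65, 0.94 and -2.37). Of the 12, 9 lay above 0, and Fezf2 and Cldn3 lay below 0 without passing the threshold (-0.20 and -0.31). The 12 summed to between 20976 and 22564 TPM, most of it from the MHC class II gene H2-Aa. Macrophages and dendritic cells also express H2-Aa, which was between 14864 and 16768 TPM. Of 7 markers of cortical epithelium, Ly75 and Dll4 were higher at that threshold. The list had 4 of 7 log2 fold changes below 0, the lowest -0.41 for Prss16, and a median of -0.10. The part of these populations in the iron genes was not tested.

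The genes whose pattern over the 4 libraries was most like that of Ftl1 and Slc40a1 were sought among 10408 genes with a mean CPM of 10 or more, by the root-mean-square difference of centred log2 CPM. For Ftl1 they were Smap2 (0.0149), Mcm10 (0.0215) and Cd2 (0.0239), and 151 genes lay within 0.1 of it, so its pattern was a common one. For Slc40a1 they were Gm4902 (0.0909), Lgmn (0.0945) and Cd68 (0.0953), and 5 genes in all lay within 0.1. Of the genes named here, Cd68 is on the macrophage list and the others are on none of the marker lists. Which cells these transcripts came from was not tested.

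The rest of the iron and heme pathway was followed in 9 lists of 79 genes that exclude the 10 above. Of the 79 genes, 77 were listed in the tables and 75 were tested. At an unadjusted p under 0.05, 1 was higher (Bach1), 2 were lower (Hp and Spic) and 72 did not pass, beside 5.27% higher and 3.32% lower of all genes tested. None passed the adjusted threshold in edgeR's quasi-likelihood test, and 1, Spic, did in DESeq2. At the unadjusted threshold DESeq2 called 2 higher and 4 lower, beside 5.8% higher and 4.38% lower of all genes it tested. Their median log2 fold change was -0.09, with a range from -1.96 for Glrx5, which had between 12 and 78 counts, to 1.36 for Tfr2, which had between 17 and 97.

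Hp encodes haptoglobin, which captures free haemoglobin. Its counts were 2978 in WT 1 and 2645 in WT 2, against 1498 in Sirt6-/- 1 and 1179 in Sirt6-/- 2 (log2 fold change -1.01, SE 0.28, adjusted p = 0.54 by edgeR's quasi-likelihood test with Benjamini-Hochberg adjustment). Without Sirt6-/- 2 its log2 fold change was -0.83 and no longer passed the unadjusted threshold. Spic, a transcription factor needed by the red pulp macrophages that recycle iron, had 1500, 1080, 413 and 544 counts in the same order (log2 fold change -1.38, SE 0.34, adjusted p = 0.54, the same edgeR test). It is also on the macrophage list. In both genes the 2 mutant libraries were lower than the 2 WT libraries.

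Bach1, a heme-sensing repressor of Hmox1 and of ferritin genes, showed 1253 counts in WT 1, 1009 in WT 2, 3243 in Sirt6-/- 1 and 1693 in Sirt6-/- 2 (log2 fold change 1.19, SE 0.41, adjusted p = 0.55, the same edgeR test). It was higher in both mutant libraries, as Hmox1 was, and Sirt6-/- 1 was its highest library. Its part in the level of Hmox1 or ferritin was not tested. Its log2 fold change fell to 0.60 when Sirt6-/- 1 was left out, and it missed the unadjusted threshold in edgeR without Sirt6-/- 1, without WT 1 and without WT 2.

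By role, none of 14 genes of iron uptake and reduction, 2 export oxidases, 7 cytosolic sensors and chaperones, 2 genes of ferritin turnover, 16 of mitochondrial iron and iron-sulfur clusters, 9 of heme synthesis or 7 of the hepcidin axis passed the unadjusted threshold in edgeR. The calls above were Hp, of 10 genes of heme transport and breakdown, and Bach1 and Spic, of 8 regulators of ferritin and heme oxygenase transcription. Alas1, which encodes the first enzyme of heme synthesis, was 1336 TPM in WT 1, 1318 in WT 2, 1146 in Sirt6-/- 1 and 1597 in Sirt6-/- 2, and Pgrmc1, a heme-binding membrane protein, was 1005, 1059, 997 and 1204 TPM. In both genes the groups overlapped.

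Ltf, the iron-binding lactoferrin, was 533, 464, 415 and 379 TPM, and Iscu, the scaffold of iron-sulfur clusters, was 328, 354, 264 and 291 TPM. Both were lower in both mutant libraries without passing the test (log2 fold changes of -0.32 and -0.29, adjusted p = 0.65 and adjusted p = 0.71 in edgeR). Pcbp1, a chaperone that delivers iron to ferritin, had a log2 fold change of -0.09 (SE 0.23), and Tax1bp1, an adaptor of ferritin autophagy, -0.09 (SE 0.16). Heph, a membrane oxidase that works with ferroportin, had a log2 fold change of 0.59 (SE 0.37), Hamp, which encodes hepcidin, 0.58 (SE 0.41) and Nfe2l2, an activator of Hmox1 and ferritin transcription, 0.25 (SE 0.18). None of the last 5 passed the unadjusted threshold in edgeR.

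**Figure D5:**
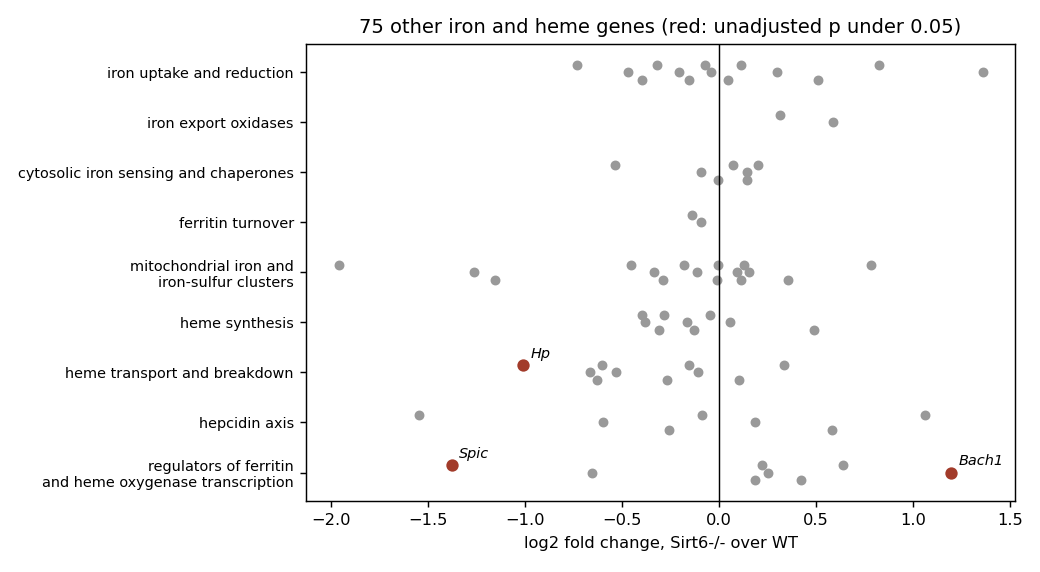
Log2 fold change, Sirt6-/- over WT, of the 75 other iron and heme genes tested, 1 point a gene, by list. Red points have an unadjusted p under 0.05 in edgeR: Hp and Spic lie below 0 and Bach1 above 0, and the other 72 genes are grey.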

How the data were processed

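RNA-seq of sorted mTECs was analysed in 2 WT and 2 Sirt6-/- libraries, grouped by the genotype in the labels. Reads were trimmed (Trim Galore), aligned to mm10 (HISAT2, version 2.1.0 in the submitters' processing notes) and quantified (StringTie, version 1.3.3) by the authors. They deposited whole-number counts per gene, without normalization, and TPM per library. A line of the TPM files that held the column total was left out. The annotation, the use of strand and the treatment of reads with several matches are not given in the sources used here.

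Counts were tested with edgeR 4.0.16 in R 4.3.3 (TMM, filterByExpr at 10 counts, 15 in total, glmQLFit, glmQLFTest), on all 18547 genes that passed, with Benjamini-Hochberg adjustment at 0.05. An exact permutation test of 2 against 2 cannot go below p = 0.333. The 10 genes and all gene lists were chosen with earlier results of these data known. Named from the lists were the genes with an unadjusted p under 0.05, the most abundant gene of each iron list, and 6 macrophage markers. Glrx5, Tfr2, Ptprc, the other macrophage markers above 0 and the markers named for other cell types were picked after their values were seen. Stem-loops, exon overlaps and words of 50 bases came from GENCODE M21 (GRCm38, which is mm10). Depth differed little between libraries, and no pair was alike within sampling noise (chi-square per gene of 161 or more). Alternatives were DESeq2 1.42.0, other filters and normalizations, limma 3.58.1 on log2(TPM + 1) and log2(TPM + 0.1), the replicate number as a block, and each library left out. With a library left out, the lone library of its group was taken to vary like the other group.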

Additional observations from a re-analysis of the deposited data

How the results depend on the processing

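Ftl1 kept its direction in all 12 alternatives (log2 fold change from -0.65 to -0.47), as did Fth1 (-0.50 to -0.36), Slc40a1 (-1.54 to -0.83), Tfrc (0.52 to 1.08), Ncoa4 (0.43 to 0.91), Hmox1 (0.83 to 0.93) and Sirt6 (0.19 to 0.54). With a library left out, Slc11a1 ran from -0.87 to 0.026 (turning without WT 1), Slc11a2 from -0.22 to 0.17 (turning without WT 1 and, to 0.0049, without Sirt6-/- 2) and Ireb2 from -0.27 (turning without Sirt6-/- 1) to 0.94. Cp stayed below 0, at -0.35 without WT 1 and -0.044 without WT 2, beside -0.19. With each library left out, the log2 of Fth1 over Ftl1 ran from 0.016 (without Sirt6-/- 1) to 0.27, beside 0.15 with all 4.

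Of the iron and heme genes, 1 was higher and 2 were lower. The count of higher genes was 2 with DESeq2, without a filter, with the authors' filter and with limma on log2(TPM + 0.1), and 0 to 4 with a library left out (0 without WT 1 or Sirt6-/- 1, 3 without WT 2, 4 without Sirt6-/- 2). The count of lower genes was 4 with DESeq2, the authors' filter, upper quartile normalization and limma on log2(TPM + 0.1), and 5 with library size alone and limma on log2(TPM + 1). Over the same omissions, macrophage markers called lower ran from 6 (without Sirt6-/- 1) to 10 and higher from 0 to 1 (without WT 1 or Sirt6-/- 2). All genes called ran from 421 to 1100 higher and 314 to 827 lower, lowest without Sirt6-/- 1, beside 977 and 615. The cause was not tested. Of all calls, 61.4% were higher, against 48.4% under upper quartile scaling and 46.2% under library size alone.

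Over the genes tested, deviations from the group mean in the libraries numbered 1 had a correlation of -0.054. That value cannot show whether the samples were paired by litter or day, which the labels do not give. With the replicate block, Ftl1 was -0.55, 1 iron gene was higher and 2 lower, 9 macrophage markers were lower, and 697 genes were higher and 449 lower. With 2 libraries a group, the precision is set by the spread between libraries.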
